A study of Homo sapiens with 24 samples.

Results

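RNA sequencing compared LNCaP cells carrying the SIRT1 knockdown named 10 with LNCaP cells carrying a non-targeting control hairpin (NTC), both kept in charcoal-stripped serum (CSS) with vehicle. LNCaP is a hormone-sensitive human prostate cancer line, and stripping with charcoal takes most androgens out of serum. The 6 libraries, 3 of each group, were chosen by their sample titles from the 24 libraries of the series, and every expressed gene was described: 14558 of 23207 gene symbols had enough counts to be tested. The hairpins were delivered by lentivirus to both groups (multiplicity of infection 10), and puromycin at 1 µg/ml for selection and 0.5 µg/ml for upkeep was given to both. Before harvest both spent 48 h in medium with fetal bovine serum (FBS), then 24 h in CSS medium and 24 h in CSS medium with vehicle. Beside them stand knockdown 10 and NTC cells given 1 nM dihydrotestosterone (DHT, the main androgen of the prostate) in place of vehicle, the same cells given 1 nM DHT with 10 µM enzalutamide (an antiandrogen drug), and shSIRT1 and NTC cells in FBS medium, with 3 libraries in each group. The labels call the knockdown cells clones and do not say whether 10 and shSIRT1 carry the same hairpin, so loss of SIRT1 and a difference between clones cannot be told apart. Nothing in the labels says that replicates came from separate cultures, so the p-values measure only the spread between these libraries, which may be technical.

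SIRT1 is a protein deacetylase that uses NAD+ as its second substrate and takes acetyl groups off histones and off many regulators of transcription, among them the FOXO factors. In prostate cells androgens drive secretory genes such as KLK3, and they also support growth of hormone-sensitive tumour cells. Withdrawal of androgen slows the LNCaP cell cycle, so vehicle in stripped serum is the low-androgen arm of the design, and the comparison reads the knockdown against its control hairpin in that state.

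SIRT1 itself had 7.44, 9.15 and 8.28 TPM in knockdown 10 cells, against 22.6, 24.6 and 23.9 TPM in NTC cells (TPM is the authors' deposited level per gene length). All 3 knockdown libraries lay below all 3 NTC libraries, and the fitted level was 2.93-fold lower (log2 fold change -1.55, SE 0.0925, adjusted p = 2.01e-09, edgeR quasi-likelihood test with Benjamini-Hochberg adjustment over the 14558 genes, as for every adjusted p given here). Transcript thus remained in the knockdown cells. Of the 6 other sirtuin genes, SIRT2, a mainly cytoplasmic deacetylase, rose (log2 fold change 0.45, adjusted p = 1.67e-06) and so did SIRT5, a mitochondrial desuccinylase (0.31, adjusted p = 0.00136), while the other 4 did not pass. Among 14 genes of NAD synthesis and use, 2 rose and 4 fell (42.9% called, against 34.6% of all genes tested). PARP1 and PARP2, nuclear enzymes that spend NAD+ at DNA breaks, were lower (log2 fold changes -0.47 and -0.53), as was NNMT, which methylates nicotinamide (-1.71). NAMPT, the rate-limiting enzyme of NAD+ salvage, averaged 67.6 ± 2.13 TPM in knockdown 10 cells and 70.1 ± 2.89 TPM in NTC cells (SD, n = 3) and did not pass (adjusted p = 0.375).

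The vehicle libraries held 30.1 to 32.9 M counts in knockdown 10 cells and 28 to 32.3 M in NTC cells, with 5.03 to 5.4% of the counts in the 10 most abundant genes. Luminal LNCaP markers summed to 3360 to 3780 TPM in knockdown 10 cells and 3210 to 3340 TPM in NTC cells. The most abundant of them, FOLH1, which encodes the prostate membrane antigen, averaged 1520 TPM in knockdown 10 cells and 1460 TPM in NTC cells and did not pass (adjusted p = 0.652). Of the 11 luminal markers, all tested, 5 fell and 1 rose (54.5% called, against 34.6% of all genes). Their median log2 fold change was -0.19, and KLK3 was the lowest at -2.08. Markers of basal cells or other prostate lines summed to 6.98 to 7.87 TPM in knockdown 10 cells and 4.28 to 5.51 TPM in NTC cells. Of these 12 markers 5 were expressed enough to be tested and 1, ANXA1, rose (log2 fold change 0.69, adjusted p = 0.00684), while KRT5, KRT14, TP63 and KRT6A had 0 to 3 counts in each group. Fibroblast markers summed to 8.46 to 10.6 TPM in knockdown 10 cells and 8.06 to 10.7 TPM in NTC cells, and leukocyte and endothelial markers to 7.66 to 9.03 TPM in knockdown 10 cells and 8.55 to 8.84 TPM in NTC cells. Of the 3 fibroblast markers tested 1 rose and 1 fell, and of the 3 leukocyte and endothelial markers tested 1 fell. The part of these markers in the results was not tested. In a principal component analysis the first component, with 61.3% of the variance, parted the groups, and the second, with 16.6%, set replicate 1 of both groups apart from the rest. In bulk RNA, fewer cells of a kind and less RNA per cell cannot be told apart, which holds for every level below.

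The knockdown 10 cells differed from NTC cells in many genes by small amounts and in few genes by large amounts. At an adjusted p under 0.05, 5038 of 14558 genes (34.6%) were called, 2260 of them higher (15.5%) and 2778 lower (19.1%). The replicates of the 2 groups did not overlap in 6904 genes (47.4%). The median absolute log2 fold change over all tested genes was 0.19, and 3253 of the called genes lay within 0.5 of no change. The large changes ran downward: 571 called genes were more than 2-fold lower against 159 more than 2-fold higher, and 126 were more than 4-fold lower against 10 more than 4-fold higher. The median log2 fold change over all tested genes was -0.004, which the scaling of the libraries sets near 0. Counts in the lists below stand beside the shares over all genes, 34.6% called, 15.5% higher and 19.1% lower. In the lists of genes described below, counts of 5 or fewer called members often moved by more than 1.5 times when 1 library was left out, and larger counts that did so are marked where they stand.

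**Figure D1:**
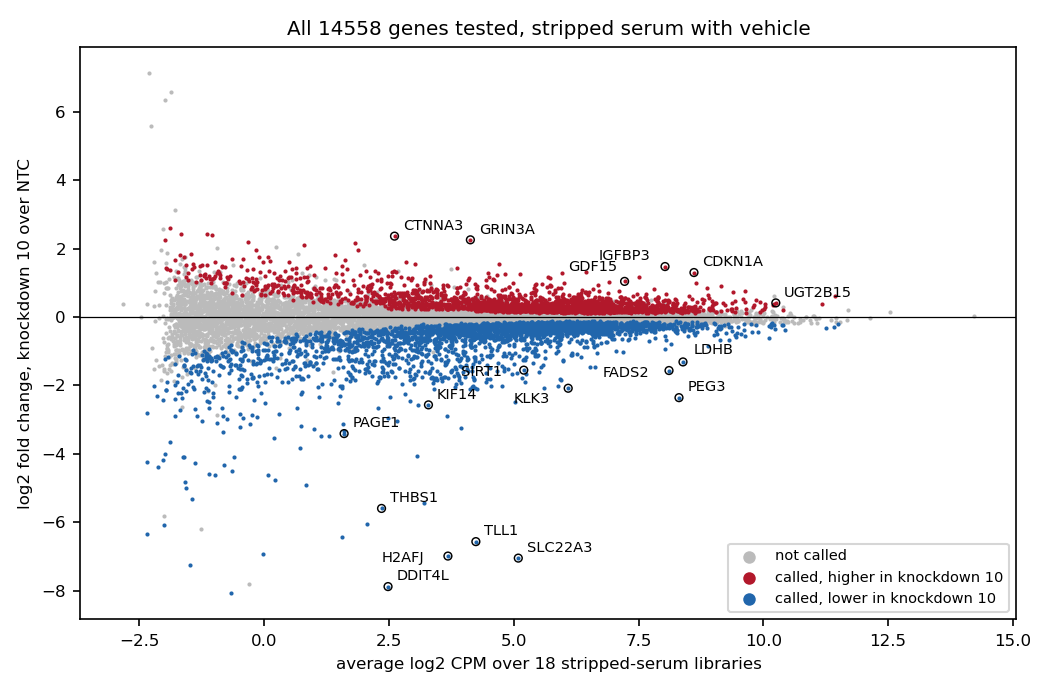
Log2 fold change in knockdown 10 over NTC cells (vertical axis) against average log2 CPM (horizontal axis, counts scaled to library size) for 14558 tested genes, with the 5038 called genes in colour. Among called genes the lower ones reach further from 0 than the higher ones, with DDIT4L, SLC22A3 and H2AFJ among the lowest.

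Replication genes were lower almost throughout. DNA replication starts when licensing factors load the MCM helicase at origins in G1, and continues as polymerases, clamps and a supply of deoxynucleotides carry the forks. Of 29 origin licensing and firing genes 26 fell and 1 rose (29 tested, median log2 fold change -0.72, against -0.004 over all genes and a background of 19.1% called lower). CDC6, which loads the helicase, had 4.49, 4.09 and 5.59 TPM in knockdown 10 cells, against 12.6, 12.5 and 15.1 TPM in NTC cells. MCM10, which helps activate it, had 1.44, 1.07 and 1.42 TPM in knockdown 10 cells, against 4.71, 5.01 and 6.11 TPM in NTC cells. In both genes the 3 knockdown libraries lay below the 3 NTC libraries, at log2 fold changes of -1.52 (adjusted p = 1.13e-05) and -2.02 (adjusted p = 1.52e-06). The helicase subunits were lower by less, with MCM2 at -0.72, adjusted p = 3e-05 and MCM5 at -1.06, adjusted p = 2.91e-06. ORC6, a subunit of the origin recognition complex, stood at -1.40 and C15orf42, an older symbol for the initiator TICRR, at -1.91. CDT1, the licensing factor that pairs with CDC6, averaged 6.44 ± 0.749 TPM in knockdown 10 cells and 7.18 ± 0.65 TPM in NTC cells and did not pass (adjusted p = 0.174).

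At the fork, 29 of 35 genes fell and 2 rose, with a median of -0.42. PCNA, the sliding clamp, was abundant and only modestly lower, with 107, 111 and 115 TPM in knockdown 10 cells, against 126, 143 and 145 TPM in NTC cells (log2 fold change -0.33, SE 0.0698, adjusted p = 0.00127). The clamp-associated factor KIAA0101 was lower by more (log2 fold change -1.51, SE 0.119, adjusted p = 5.83e-08), as were FEN1, the nuclease that trims Okazaki fragments (-1.07), and ASF1B, a histone chaperone of replicating chromatin (-1.79). Of 21 genes of deoxynucleotide synthesis, 16 fell and 1 rose. RRM2, the regulated subunit of ribonucleotide reductase, had 6.24, 4.75 and 6.4 TPM in knockdown 10 cells, against 15.6, 18.4 and 18.6 TPM in NTC cells, and TYMS, thymidylate synthase, had 16, 16.2 and 18.1 TPM in knockdown 10 cells, against 34.4, 36.2 and 40.8 TPM in NTC cells. Neither gene overlapped between the groups, and their log2 fold changes were -1.61 and -1.17. TK1, the thymidine kinase of S phase, stood at -1.36 and PPAT, the first committed enzyme of purine synthesis, at -1.05.

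The regulators of entry into S phase moved in both directions. E2F1, a transcription factor of replication genes that the retinoblastoma protein restrains, had 4.09, 3.14 and 4.35 TPM in knockdown 10 cells, against 8.52, 9.52 and 10.6 TPM in NTC cells (log2 fold change -1.32, SE 0.156, adjusted p = 5.05e-06), with no overlap. Of 19 E2F and retinoblastoma genes 11 fell and 2 rose, and FOXM1 and MYBL2, activators of the late cell cycle, were among the lower ones (-1.27 and -1.48). The 2 risers were RBL2 and RB1 (0.46 and 0.24), pocket proteins that bind E2F factors, named here because the count is small. Of 11 G1 cyclins and kinases 7 fell and none rose, CCNE1 and CDK2 among them (-0.69 and -0.66; 1 rose with the replicate block described below), while CCND1, cyclin D1, averaged 104 ± 10.2 TPM in knockdown 10 cells and 112 ± 7.69 TPM in NTC cells and did not pass (adjusted p = 0.481, or 0.0212 with the block). Of 8 genes of CDK inhibitors 3 rose and 3 fell. CDKN1A, which encodes p21, was the most abundant of them, with 424, 543 and 566 TPM in knockdown 10 cells, against 180, 225 and 210 TPM in NTC cells, and was 2.46-fold higher with no overlap. CDKN1B, which encodes p27, rose (0.25), and CDKN2A, CDKN2C and CDKN3, a phosphatase of CDKs, fell (-0.59, -0.60 and -1.28).

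**Figure D2:**
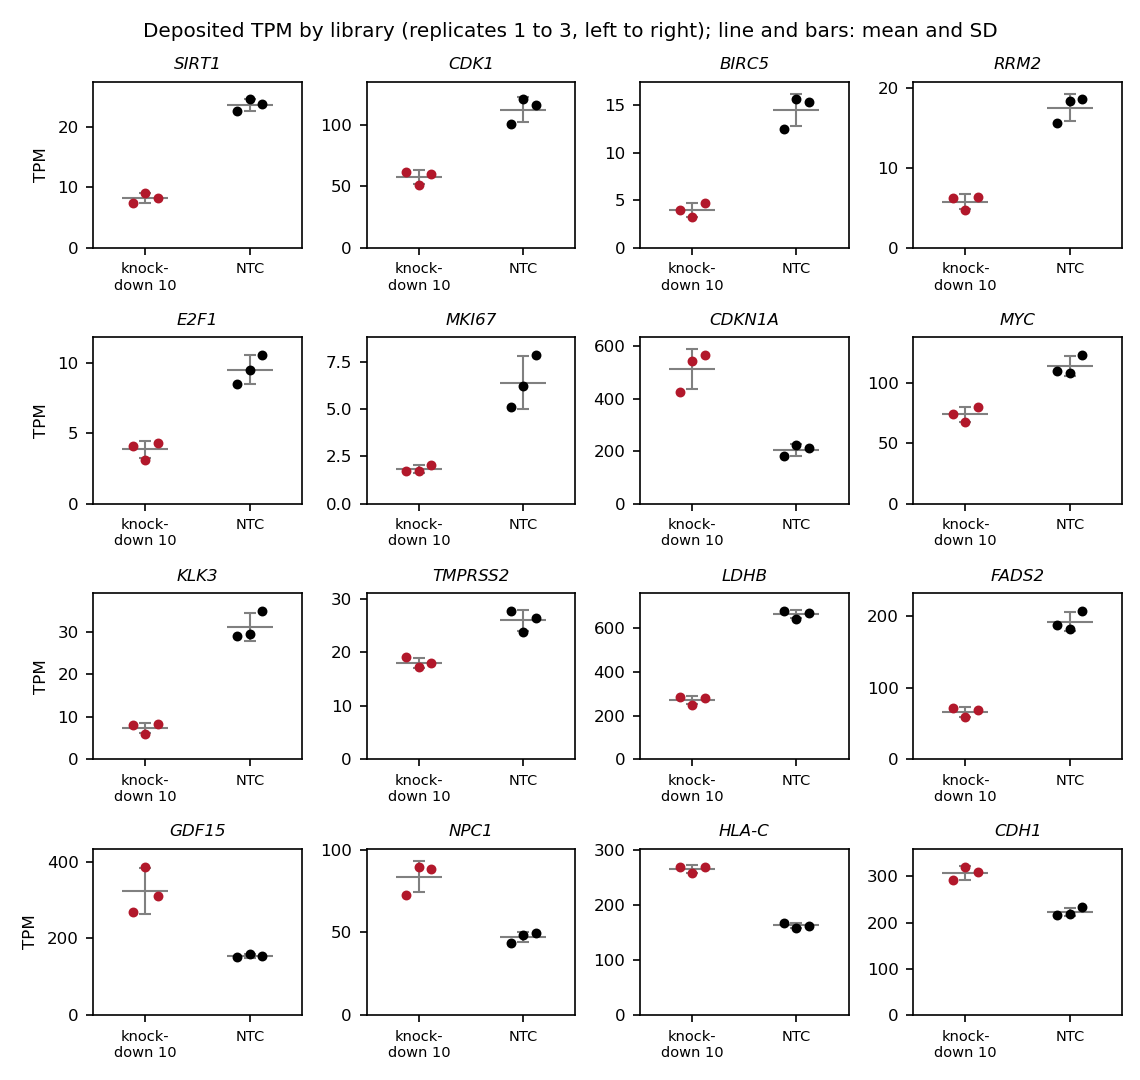
Deposited TPM (vertical axes, linear from 0) in the 3 knockdown 10 libraries (left) and the 3 NTC libraries (right) for 16 genes, 1 point per library, with a line at the group mean and bars of 1 SD. CDKN1A, GDF15, NPC1, HLA-C and CDH1 stand higher in all 3 knockdown libraries, and the other 11 genes lower.

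Mitotic entry, kinetochore and spindle genes had lower medians than the replication lists. Mitotic entry needs cyclin B with CDK1 and the Aurora and Polo kinases, kinetochores then tie chromosomes to the spindle, and the anaphase-promoting complex (APC/C) ends the phase by marking cyclin B and securin for destruction. Of 16 genes of mitotic entry 14 fell and none rose (median log2 fold change -1.36). CCNB1, cyclin B1, had 19, 17.8 and 19.1 TPM in knockdown 10 cells, against 34.9, 43.8 and 43 TPM in NTC cells, and CDK1, its kinase, had 61.9, 51.4 and 60.4 TPM in knockdown 10 cells, against 101, 121 and 116 TPM in NTC cells. The knockdown libraries lay below the NTC libraries in both (-1.14 and -0.98), and the checkpoint kinase BUB1B and the centrosome kinase NEK2 were further down (-1.64 and -1.78). Of 42 kinetochore and checkpoint genes 32 fell and 1 rose (median -0.94). BIRC5, the survivin subunit of the chromosomal passenger complex, had 3.95, 3.19 and 4.74 TPM in knockdown 10 cells, against 12.5, 15.6 and 15.3 TPM in NTC cells, without overlap, and MAD2L1, a spindle checkpoint protein, was 3.08-fold lower (adjusted p = 1.05e-08).

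Among 32 spindle and kinesin genes 29 fell and none rose (median -1.46), or 1 rose without knockdown library 1 or NTC library 3. The lowest was KIF14, a kinesin of cytokinesis, with 0.44, 0.3 and 0.4 TPM in knockdown 10 cells, against 1.73, 2.46 and 2.52 TPM in NTC cells, and TPX2, which activates Aurora A on the spindle, stood at -1.65. Of 18 genes of the APC/C and mitotic exit 8 fell (5 without knockdown library 2) and 2 rose, with a median of -0.04. CDC20, the activator of the complex in mitosis, PTTG1, securin, and UBE2C, its conjugating enzyme, were 3.54-fold, 2.85-fold and 3.11-fold lower, whereas most core subunits did not pass. Condensin and cohesin genes counted 12 lower and 2 higher of 21, led by NCAPG and by TOP2A, the topoisomerase of chromosome condensation (-1.80 and -1.82). MKI67, which encodes the proliferation antigen Ki-67, had 1.72, 1.71 and 2.05 TPM in knockdown 10 cells, against 5.11, 6.23 and 7.85 TPM in NTC cells and did not overlap (log2 fold change -1.83, SE 0.192, adjusted p = 1.4e-06).

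The proximal promoters of these genes hold known cell cycle elements, and stretches of 6 are printed because they carry the letters searched for; they were chosen after the values were seen. The sequences are RefSeq promoters on GRCh38.p14, read on the gene's strand from 5′ to 3′, with matches in capitals. In the mitosis genes the capitals mark the cell cycle homology region (CHR, TTTGAA or TTCGAA), an element bound by the DREAM and MYB-MuvB complexes, and CCAAT, the NF-Y element. In the replication genes they mark E2F elements (TTTCCCGC, TTTCGCGC, TTTGCCGC or TTTGGCGC) and any CHR or CCAAT.
PLK1 (chr16:23678768-23678918, plus strand): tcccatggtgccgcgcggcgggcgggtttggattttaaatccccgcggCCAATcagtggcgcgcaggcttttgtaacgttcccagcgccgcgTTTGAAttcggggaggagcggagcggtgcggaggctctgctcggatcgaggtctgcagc
CCNB2 (chr15:59105025-59105175, plus strand): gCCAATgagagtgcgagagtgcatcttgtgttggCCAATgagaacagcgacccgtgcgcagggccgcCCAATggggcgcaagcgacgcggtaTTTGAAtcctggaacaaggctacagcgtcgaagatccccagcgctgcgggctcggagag
CDC20 (chr1:43358860-43359010, plus strand): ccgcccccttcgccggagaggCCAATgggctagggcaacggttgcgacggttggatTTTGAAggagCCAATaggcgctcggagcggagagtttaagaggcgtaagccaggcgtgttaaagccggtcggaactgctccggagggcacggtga
CDC6 (chr17:40287758-40287908, plus strand): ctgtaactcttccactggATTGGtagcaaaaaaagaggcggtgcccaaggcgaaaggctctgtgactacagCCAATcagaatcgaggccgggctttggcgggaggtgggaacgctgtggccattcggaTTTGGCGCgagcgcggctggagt
E2F1 (chr20:33686356-33686506, minus strand): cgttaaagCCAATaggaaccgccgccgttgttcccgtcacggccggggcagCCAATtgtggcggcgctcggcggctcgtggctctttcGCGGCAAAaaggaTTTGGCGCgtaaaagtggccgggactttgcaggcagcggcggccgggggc
RRM2 (chr2:10122588-10122768, plus strand): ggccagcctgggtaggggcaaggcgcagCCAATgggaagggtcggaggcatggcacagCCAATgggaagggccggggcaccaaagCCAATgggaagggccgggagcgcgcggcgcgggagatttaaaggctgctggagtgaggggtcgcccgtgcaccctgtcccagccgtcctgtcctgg
PLK1, the Polo kinase, was lower by -1.31 on the log2 scale, and the changes of the others are given above or follow (CCNB2, cyclin B2, -1.41). Over the 108 tested members of the mitotic entry, kinetochore, spindle and APC/C lists, 83 were lower and 93 had a promoter in the table. A CHR on either strand stood in 50 of the 93 (53.8%, against 16.6% of all 27305 promoters and 11.2% of the 11216 of tested genes), CCAAT in 60 (64.5%, against 35.7% and 36.9%), and both in 37 (39.8%, against 6.58% and 4.71%). Over the 85 tested members of the licensing, fork and deoxynucleotide lists, 71 were lower and 71 had a promoter, of which 23 held an E2F element (32.4%, against 3.33% of all promoters and 5.24% of those of tested genes) and 6 a CHR (8.45%). The list shares count members whether or not they changed. Over all genes called lower, 2243 had a promoter. A CHR stood in 13.5% of these, CCAAT in 39.9% and an E2F element in 6.38%. The shares of tested genes were 11.2%, 36.9% and 5.24%. All of these are letter matches and were not tested as sites.

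DNA repair genes were lower by pathway to different degrees. Homologous recombination, which copies a sister strand to mend a break, counted 16 lower and 1 higher of 26 genes. BRCA1 had 2.67, 2.35 and 3.1 TPM in knockdown 10 cells, against 5.52, 5.85 and 5.77 TPM in NTC cells, and BRCA2, which acts in strand exchange at resected ends, had 0.51, 0.53 and 0.54 TPM in knockdown 10 cells, against 1.2, 1.7 and 1.66 TPM in NTC cells. Both were lower without overlap (-1.06 and -1.54), as was EXO1, the resection nuclease (-2.10). Fanconi anaemia genes, which handle crosslinks, counted 10 lower and none higher of 13, led by UBE2T and FANCI (-1.11 and -0.98). In mismatch, base excision and end joining 10 of 23 fell (6 without knockdown library 2) and 2 rose, with the abundant endonuclease gene APEX1 at 256 TPM in knockdown 10 cells and 370 TPM in NTC cells (-0.55, adjusted p = 7.19e-08). Of 14 checkpoint signalling genes 4 fell (28.6% called, against 34.6% of all genes), CHEK1 and CHEK2 among them (-1.05 and -0.73).

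Chromatin genes split. UHRF1, which recruits the maintenance methyltransferase to new DNA, had 1.91, 1.85 and 1.91 TPM in knockdown 10 cells, against 7.16, 7.9 and 9.23 TPM in NTC cells (log2 fold change -2.11, SE 0.162, adjusted p = 4.42e-08), and its partner DNMT1 was lower by less (-0.39, adjusted p = 5.83e-05). Both lay below NTC in every library. TET2, a dioxygenase that oxidises methylcytosine, rose (0.45), and 10 of 21 genes of DNA methylation and heterochromatin fell against 2 that rose. EZH2, the Polycomb methyltransferase, and CBX2 were lower (-0.51 and -0.78) in a list of 21 Polycomb and trithorax genes with 4 lower and 2 higher, 28.6% called against 34.6% of all genes. Replication-dependent histone genes had more calls higher than lower in these poly(A)-selected libraries. Of 54 listed symbols 28 were expressed enough to be tested, and 9 rose and 3 fell (42.9% called, against 34.6% of all genes). HIST1H2AC stood at 235 TPM in knockdown 10 cells and 148 TPM in NTC cells (0.64, adjusted p = 9.25e-07). Poly(A) selection reads only transcripts with a poly(A) tail, so the total of histone transcripts was not measured. Reads of these near-identical histone genes can be shared among them, so the single histone values are uncertain. H2AFZ, the variant H2A.Z, averaged 871 TPM in knockdown 10 cells and 746 TPM in NTC cells and did not pass (adjusted p = 0.0868, or 0.0423 with the replicate block, 0.025 with only the vehicle libraries and 0.0136 with limma on TPM).

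MYC and nucleolar genes were lower by smaller steps. MYC, the transcription factor that raises ribosome production, had 73.8, 67.9 and 79.7 TPM in knockdown 10 cells, against 110, 108 and 123 TPM in NTC cells (log2 fold change -0.64, SE 0.0892, adjusted p = 2.68e-05), with no overlap. Of 37 MYC and nucleolar genes 24 fell and 1 rose (median -0.32), NOP2, NOP56 and WDR12, all ribosome assembly factors, among them (-0.55, -0.42 and -0.38). Cytosolic ribosomal protein genes counted 7 lower of 74, or 9.46% against 34.6% called either way and 19.1% called lower over all genes (median -0.1), or 12 with the replicate block and 2 to 4 without 1 of 5 single libraries. Mitochondrial ribosome genes counted 16 lower and 1 higher of 40 (42.5% called), or 7 to 8 lower without NTC library 1 or knockdown library 2 or 3. Splicing factors counted 18 lower and 1 higher of 30, with HNRNPA1, an abundant RNA-binding protein, at 677 TPM in knockdown 10 cells and 973 TPM in NTC cells (-0.54, adjusted p = 4.96e-05). Nuclear pore, lamina and import genes also counted 18 lower and 1 higher of 30. LMNB1, lamin B1, led them with 20.9, 17.4 and 20.4 TPM in knockdown 10 cells, against 42.1, 49.2 and 48.8 TPM in NTC cells, 2.39-fold lower without overlap.

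The androgen axis showed lower kallikreins. KLK3, which encodes prostate-specific antigen, had 7.98, 6.05 and 8.27 TPM in knockdown 10 cells, against 29.1, 29.5 and 35 TPM in NTC cells, and KLK2 had 1.41, 1.27 and 1.87 TPM in knockdown 10 cells, against 4.53, 3.05 and 4.52 TPM in NTC cells. Neither overlapped between the groups (-2.08 and -1.44). KLK4 and KLK15 were also lower (-0.64, adjusted p = 0.000244 and -1.40, adjusted p = 0.00331), which made 4 of the 5 tested kallikrein genes. FOXA1 and HOXB13, transcription factors of the prostate epithelium, averaged 207 TPM in knockdown 10 cells and 216 TPM in NTC cells, and 184 TPM in knockdown 10 cells and 207 TPM in NTC cells, without passing (adjusted p = 0.25 and 0.161, the second 0.00594 with the block). Of 32 androgen-induced genes 16 fell and 3 rose (59.4% called, against 34.6% of all genes), with a median of -0.30. TMPRSS2, a membrane protease, had 19.1, 17.2 and 18 TPM in knockdown 10 cells, against 27.8, 23.8 and 26.4 TPM in NTC cells (log2 fold change -0.54, SE 0.127, adjusted p = 0.00311). FKBP5, a cochaperone, KCNN2, a potassium channel, and AZGP1, a secreted zinc-binding glycoprotein, were lower too (-0.68, -1.21 and -1.01), and RHOU, a small GTPase, was higher (0.53).

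Androgen-repressed genes had no common direction, with 5 higher (8 with the replicate block) and 4 lower of 19. The share called was 47.4%, against 34.6% of all genes. OPRK1, the kappa opioid receptor gene, and DDC, which encodes dopa decarboxylase, were lower (-2.09 and -1.07), and UGT2B17, which glucuronidates androgens, was higher (0.41, adjusted p = 0.0345), a call lost without any 1 of 5 libraries (adjusted p 0.0524 to 0.145) and with limma on TPM (0.0883) or CPM (0.0501). ETV1, an ETS factor gene that is translocated in LNCaP, had 13, 10 and 11.6 TPM in knockdown 10 cells, against 33.4, 29.9 and 32 TPM in NTC cells (2.76-fold lower, no overlap), and CREB3L4 was lower (-0.59), while GRHL2 and ELF3, epithelial transcription factors, were higher (0.24 and 0.42). Of 18 genes of nuclear receptor cofactors 5 rose and 4 fell (50% called, against 34.6% of all genes). Among them were PRMT5 and KDM1A, a methyltransferase and a demethylase (-0.64 and -0.45), and NCOR1, a corepressor (0.24). The KLK3 promoter is shown because it holds AGAACA, the core hexamer of the androgen response element, in capitals in the RefSeq sequence on GRCh38.p14, from 5′ to 3′.
KLK3 (chr19:50854704-50854914, plus strand): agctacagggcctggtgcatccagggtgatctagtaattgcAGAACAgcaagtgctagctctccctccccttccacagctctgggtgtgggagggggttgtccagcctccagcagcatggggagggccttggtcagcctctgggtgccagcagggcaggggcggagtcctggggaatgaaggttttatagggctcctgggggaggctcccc
AGAACA occurs on either strand in 14.9% of all 27305 promoters and 9.27% of those of tested genes. The androgen lists were not counted against that share, because fewer than 80% of their members had a promoter in the table.

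Energy metabolism genes differed by pathway, glycolysis genes being lower. LDHB, the lactate dehydrogenase subunit of oxidative tissues, had 287, 249 and 279 TPM in knockdown 10 cells, against 680, 643 and 669 TPM in NTC cells (log2 fold change -1.31, SE 0.0692, adjusted p = 4.59e-10), without overlap. HK2, the inducible hexokinase, had 2.86, 3.57 and 3.14 TPM in knockdown 10 cells, against 6.77, 6.68 and 7.38 TPM in NTC cells, and the constitutive HK1 had 67.9 TPM in knockdown 10 cells and 84 TPM in NTC cells (-1.14 and -0.32). In all, 18 of 26 glycolysis genes fell and 1 rose, and ENO1 and PKM2, an older symbol for pyruvate kinase M, were among the lower ones (-0.45 and -0.45). Respiratory chain genes counted 5 lower of 49, 13 with the replicate block, and none higher (10.2% called, against 34.6% of all genes). Hypoxia response genes pointed both ways, with 4 higher and 5 lower of 17 (52.9% called, against 34.6% of all genes). CA12, a carbonic anhydrase, and ADM, adrenomedullin, were lower (-0.95 and -2.19), and BNIP3L and INSIG2 were higher (0.52 and 0.50).

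Among the lipid genes, the desaturases FADS1 and FADS2, which make long polyunsaturated fatty acids, were lower. FADS2 had 70.8, 58.4 and 68 TPM in knockdown 10 cells, against 187, 182 and 207 TPM in NTC cells, and FADS1 had 14.1, 14 and 15.7 TPM in knockdown 10 cells, against 29.8, 31.4 and 32.8 TPM in NTC cells. They were 2.95-fold and 2.18-fold lower, with every knockdown library below every NTC library, and ELOVL2, an elongase of the same route, had 4 counts in knockdown 10 cells against 72 in NTC cells. FASN, fatty acid synthase, was lower (-0.48, adjusted p = 0.000962). Of 24 cholesterol genes 5 fell and 2 rose (29.2% called, against 34.6% of all genes). Fatty acid oxidation and peroxisome genes counted 8 higher (14 with the replicate block) and 2 lower of 29 (34.5% called, against 34.6% of all genes), HADHB, AMACR and ACAA1 among the higher (0.34, 0.49 and 0.38).

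In serine and one-carbon metabolism 9 of 19 genes fell (5 without knockdown library 3) and 1 rose. The share called was 52.6%, against 34.6% of all genes. The riser was DMGDH, which demethylates dimethylglycine in mitochondria, with 2.67, 4.56 and 3.67 TPM in knockdown 10 cells, against 0.86, 0.74 and 0.81 TPM in NTC cells. It was 4.44-fold higher without overlap, while GLDC, the glycine cleavage decarboxylase, and MTHFD1 were lower (-1.15 and -0.54). Glucuronidation and steroid genes counted 8 higher (5 without NTC library 1) and 4 lower of 19 (63.2% called). UGT2B15, which inactivates androgens, was very abundant, with 1500, 1300 and 1430 TPM in knockdown 10 cells, against 878, 1170 and 1070 TPM in NTC cells (0.41, adjusted p = 0.0109, or 0.0611 without NTC library 1), and UGT2B10 and UGT2B7 were higher (1.17 and 1.08). The UGT2B genes are close copies, so reads may be shared among them. ODC1, the rate-limiting enzyme of polyamine synthesis, averaged 243 TPM in knockdown 10 cells and 281 TPM in NTC cells and did not pass (adjusted p = 0.127, or 0.00079 with the replicate block).

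Stress genes were higher in part. Of 26 genes of the integrated stress response, in which phosphorylated eIF2 favours translation of ATF4, 12 rose and 3 fell (median 0.35, against a background of 15.5% called higher). GDF15, a secreted stress cytokine, had 269, 387 and 311 TPM in knockdown 10 cells, against 150, 160 and 154 TPM in NTC cells, and was 2.06-fold higher without overlap. ATF4 itself rose by less (log2 fold change 0.24, SE 0.0822, adjusted p = 0.0317), a call lost without knockdown library 2 or 3 or NTC library 2 or 3 (adjusted p 0.0761 to 0.105). CEBPG and SESN2 rose (0.60 and 0.50), and DDIT4, an mTOR inhibitor, did not pass (adjusted p = 0.403). Unfolded protein response genes counted 5 lower and 3 higher of 22 (8 and 6 with the replicate block), a share called of 36.4%, near the 34.6% of all genes, with the chaperone gene HSPA5 at -0.20, adjusted p = 0.00844 and HERPUD1 at 0.43, adjusted p = 0.000194. Of 22 antioxidant genes 1 rose and 3 fell (18.2% called). The riser was HMOX1, heme oxygenase (0.60, adjusted p = 0.0278), a call lost without knockdown library 2 or 3 or NTC library 1 or 3 (adjusted p 0.0652 to 0.12), and NQO1, a quinone reductase, did not pass (adjusted p = 0.488). FTH1, ferritin heavy chain, had the largest gain in TPM of any called gene, with 4600, 6110 and 5860 TPM in knockdown 10 cells, against 3160, 3840 and 3620 TPM in NTC cells (log2 fold change 0.62, SE 0.109, adjusted p = 0.000249).

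Autophagy genes, which build the vesicle that delivers cargo to lysosomes, counted 11 higher and none lower of 28 (2 lower with the replicate block). The share called was 39.3%, against 34.6% of all genes called either way and 15.5% called higher. ATG3, the enzyme that conjugates LC3 to lipid, had 352, 283 and 315 TPM in knockdown 10 cells, against 208, 219 and 211 TPM in NTC cells (log2 fold change 0.55, SE 0.0756, adjusted p = 2.22e-05), with the groups apart, and MAP1LC3B, an LC3 gene, was higher by less (0.32). Lysosome genes counted 14 higher and 2 lower of 29. NPC1, the cholesterol exporter of the lysosome, had 72.8, 89.8 and 88.1 TPM in knockdown 10 cells, against 43.6, 48.4 and 49.4 TPM in NTC cells (log2 fold change 0.81, SE 0.0982, adjusted p = 6.63e-06), with no overlap, and LAMP1, a membrane protein, and ATP6V0A1 and ATP6V0D1, proton pump subunits, were higher (0.48, 0.44 and 0.42).

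The p53 target genes moved unevenly. Of 32, 10 rose and 4 fell (43.8% called, against 34.6% of all genes). TP53INP1 and SESN2 were higher beside CDKN1A and GDF15 (0.41 and 0.50), while MDM2, the ligase gene that p53 induces, averaged 47.3 ± 3.86 TPM in knockdown 10 cells and 43.3 ± 2.38 TPM in NTC cells and did not pass (adjusted p = 0.159, or 0.0231 without knockdown library 1). In the BCL2 family and death receptors 12 of 29 rose and 4 fell (55.2% called, against 34.6% of all genes). TNFRSF21, a death receptor, was higher and BCL2, a survival gene, lower (0.64 and -0.96), the BCL2 level being 0.55 TPM in knockdown 10 cells and 1.16 TPM in NTC cells. FOXO3 averaged 84.6 TPM in knockdown 10 cells and 84.7 TPM in NTC cells and did not pass (adjusted p = 0.879).

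Immune and interferon genes moved both ways, with more called higher than lower. Over all tested genes 15.5% were called higher and 19.1% lower. MHC class I presentation counted 13 higher and 2 lower of 23. HLA-C had 270, 258 and 269 TPM in knockdown 10 cells, against 168, 159 and 162 TPM in NTC cells, without overlap (log2 fold change 0.68), with reads of the HLA genes possibly shared. TAPBPL and TAPBP, which load peptides, were higher (1.23 and 0.53). PSMB9, an immunoproteasome subunit, had 6.68, 10.8 and 9.55 TPM in knockdown 10 cells, against 3.31, 2.77 and 3.26 TPM in NTC cells. It was 2.83-fold higher. Its partner subunit PSMB8 had 0.627 TPM in knockdown 10 cells and 1.06 TPM in NTC cells and did not pass (adjusted p = 0.209). Interferon-stimulated genes counted 13 higher (22 with the replicate block) and 5 lower of 48. The share called was 37.5%, near the 34.6% of all genes called either way. DDX60, OAS1 and IRF1 were higher (0.87, 0.95 and 0.59). NF-kB genes counted 8 higher (3 to 5 without NTC library 2 or knockdown library 1 or 3) and 2 lower of 20. IL1RN, which encodes the interleukin-1 receptor antagonist, had 81.6, 72.8 and 88.6 TPM in knockdown 10 cells, against 32.1, 35.8 and 38.9 TPM in NTC cells (log2 fold change 1.17, SE 0.0745, adjusted p = 3.94e-09), with no overlap, and NFKBIA, an inhibitor of the pathway, rose by less (0.25, adjusted p = 0.0206, or 0.0504 to 0.0849 without knockdown library 1 or 3 or NTC library 2, and 0.052 with limma on TPM). Immediate early genes counted 9 higher and 1 lower of 19: KLF4, JUNB and KLF10 were higher (1.14, 0.68 and 0.52), MYC was the lower gene, and FOS had 0.727 TPM in knockdown 10 cells and 0.643 TPM in NTC cells without passing.

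Of the growth factor genes, IGFBP3, which binds insulin-like growth factors outside the cell, stood out with 231, 249 and 282 TPM in knockdown 10 cells, against 79.2, 104 and 87.6 TPM in NTC cells (log2 fold change 1.48, SE 0.095, adjusted p = 4.28e-09), every knockdown library being above every NTC library. IGF1 was lower at a very low level (0.403 TPM in knockdown 10 cells and 0.95 TPM in NTC cells). Among 17 NOTCH genes 6 fell and 1 rose (41.2% called, against 34.6% of all genes). The ligand gene JAG1 had 6.59, 7.43 and 7.82 TPM in knockdown 10 cells, against 14.5, 21.1 and 24.4 TPM in NTC cells (2.77-fold lower, groups apart). TGF-beta and BMP genes counted 8 higher and 4 lower of 29 (41.4% called, against 34.6% of all genes). SMAD1 and SMAD7, a BMP effector and an inhibitor of the pathway, were higher (0.68 and 0.51), and BAMBI, a decoy receptor, was lower (-0.63).

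**Figure D3:**
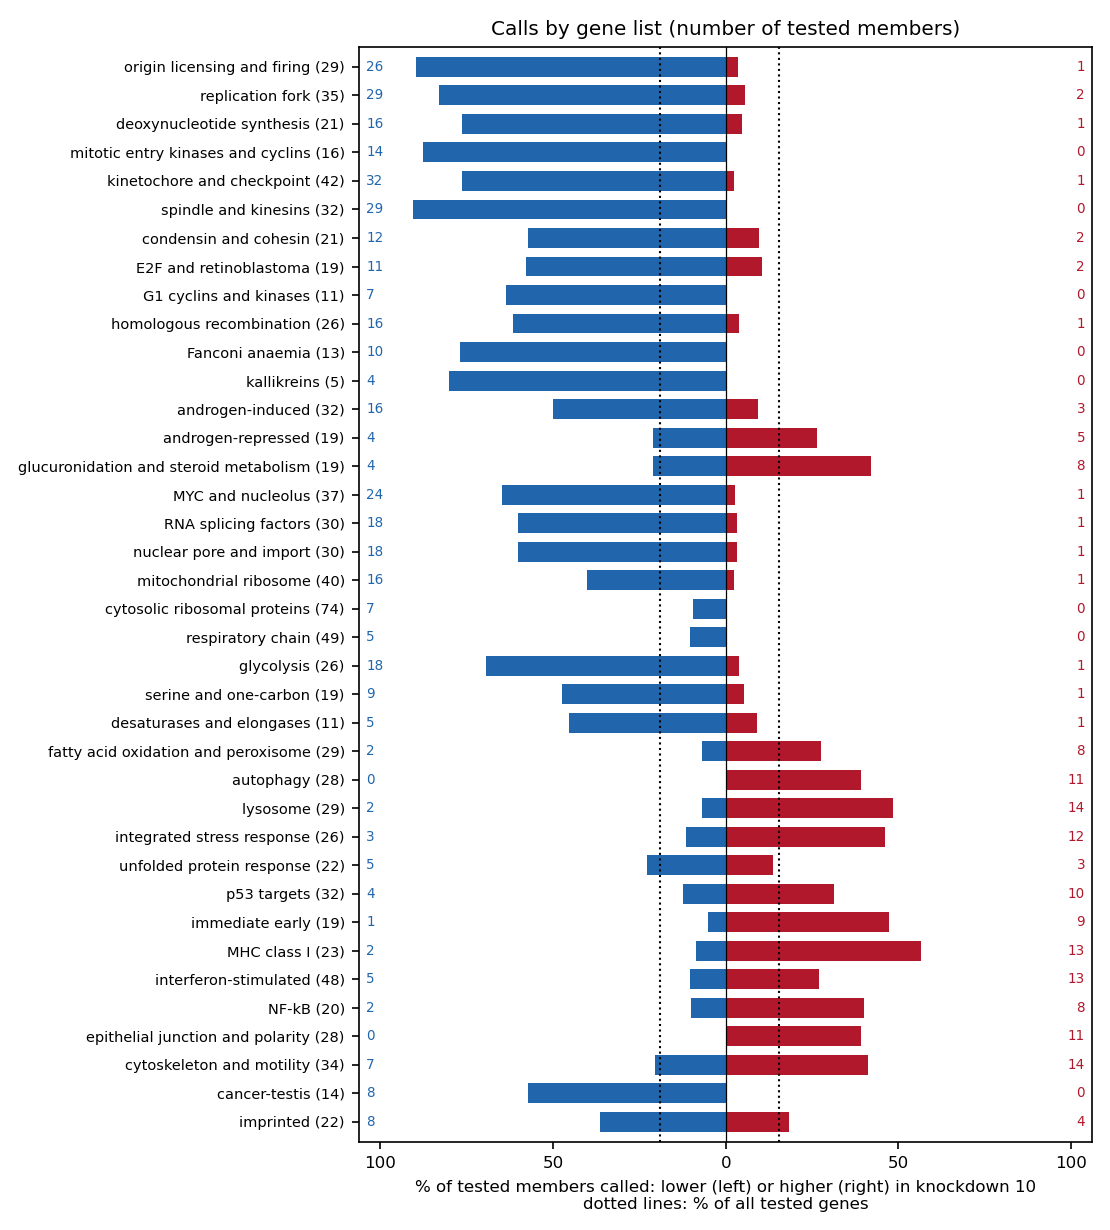
Called members as a share of tested members for the gene lists the text describes, with higher members to the right of 0 and lower members to the left, numbers of called members at the edges, and dotted lines at 15.5% higher and 19.1% lower, the shares over all tested genes. The spindle list (29 of 32 lower) reaches furthest to the left and the MHC class I list (13 of 23 higher) furthest to the right.

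Genes of epithelial junctions were higher in part, and desmosome and keratin genes moved both ways. Of 28 genes of epithelial junctions and polarity 11 rose and none fell (3 fell with the replicate block). The share called was 39.3%, against 34.6% of all genes called either way and 15.5% called higher. CDH1, E-cadherin, had 291, 321 and 310 TPM in knockdown 10 cells, against 216, 218 and 233 TPM in NTC cells (log2 fold change 0.45, SE 0.0576, adjusted p = 1.13e-05), with no overlap, and OCLN and ST14 were higher (0.44 and 0.33). KRT8, a luminal keratin, rose (0.42, adjusted p = 0.00014) and its partner KRT18 did not pass (adjusted p = 0.104, or 0.00892 with the replicate block and 0.0238 with only the vehicle libraries). Among 16 desmosome and keratin genes 3 rose and 3 fell, a share called of 37.5%, near the 34.6% of all genes. KRT80, a keratin, was higher (1.28) and the desmosomal cadherin DSC3 had 0.2, 0.25 and 0.21 TPM in knockdown 10 cells, against 3.99, 3.58 and 3.29 TPM in NTC cells, 16.6-fold lower. Cytoskeleton and motility genes counted 14 higher (9 without NTC library 1 or 3) and 7 lower of 34 (61.8% called). ACTN4 and RDX were higher and TAGLN2 was lower (0.43, 0.41 and -0.67). They encode an actinin, radixin and a transgelin. VIM, vimentin, had 31.7 TPM in knockdown 10 cells and 34.4 TPM in NTC cells and did not pass.

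Gene families with narrow expression elsewhere in the body varied by list. Ion channel and ionotropic receptor genes counted 7 lower and 6 higher of 23 (56.5% called, against 34.6% of all genes). HOX and DLX genes counted 2 lower and 3 higher of 20, or 25% called, below that share. Cancer-testis genes, which are usually silent outside the germ line, counted 8 lower and none higher of 14 (1 higher with the replicate block). MAGEA1 had 3.35, 2.22 and 3.23 TPM in knockdown 10 cells, against 18.3, 21.7 and 24.1 TPM in NTC cells, and PAGE1 had 2.14, 1.81 and 2.37 TPM in knockdown 10 cells, against 18.6, 22.5 and 24.9 TPM in NTC cells. Both were far below NTC in every library (-2.88 and -3.41), with reads possibly shared among these close copies. Of 28 neuronal adhesion genes 10 fell and 3 rose (46.4% called), with CBLN2, PCDH11X and NLGN4X among the lower (-3.24, -2.67 and -1.83). Imprinted genes, expressed from 1 parental copy, counted 8 lower and 4 higher of 22 (54.5% called). PEG3 had 26.9, 15.6 and 14.9 TPM in knockdown 10 cells, against 90.3, 100 and 101 TPM in NTC cells, and ZIM2, its neighbour that shares its promoter, stood at -3.14. NAP1L5, named after its values were seen, had 0 counts in knockdown 10 cells against 101 in NTC cells, at least 34.6-fold lower by a floor of 3 counts over the group, a bound for counting error only.

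Among called genes whose average log2 CPM reached 1, several of the lowest were near 0 in every knockdown 10 library and expressed in every NTC library. SLC22A3, an organic cation transporter gene, had 0.15, 0.03 and 0.31 TPM in knockdown 10 cells, against 21.1, 21.7 and 21.2 TPM in NTC cells. DDIT4L, an inhibitor of mTOR signalling, had 0, 0.02 and 0.07 TPM in knockdown 10 cells, against 5.63, 7.97 and 8.3 TPM in NTC cells, with 4 counts in knockdown 10 cells against 1006 in NTC cells. The log2 fold changes of SLC22A3 and DDIT4L were -7.05 (adjusted p = 9.82e-14) and -7.88 (adjusted p = 1.55e-10). TLL1, a protease that activates BMPs, had 0.08, 0.08 and 0.14 TPM in knockdown 10 cells, against 6.48, 10.8 and 11.5 TPM in NTC cells, and THBS1, thrombospondin 1, had 0.05, 0.03 and 0.06 TPM in knockdown 10 cells, against 2.11, 2.47 and 2.23 TPM in NTC cells. Also among the lowest were FAM65B, an inhibitor of RhoA, at -5.45, CNTN5, a neuronal adhesion gene, at -6.05, and FCAMR, an immunoglobulin receptor gene, at -6.43 with 5 counts in knockdown 10 cells against 452 in NTC cells. NCRNA00086 stood at -3.48, and MAGEA4 and PAGE1 at -3.47 and -3.41. H2AFJ, a histone H2A variant, stood at -6.99, with reads possibly shared with other H2A genes.

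The 12 highest genes by the same rule changed by less than the 12 lowest, and IGFBP3, DMGDH and PSMB9, described above, are among them. CTNNA3, an alpha-catenin gene, had 4.56, 5.75 and 7.66 TPM in knockdown 10 cells, against 0.87, 1.08 and 1.47 TPM in NTC cells. GRIN3A, an NMDA receptor subunit gene, had 3.65, 2.84 and 4.07 TPM in knockdown 10 cells, against 0.93, 0.59 and 0.65 TPM in NTC cells, and REG4, a secreted lectin gene, had 15.9, 9.78 and 9.61 TPM in knockdown 10 cells, against 3, 2.96 and 2.57 TPM in NTC cells. These 3 genes were 5.15-fold, 4.78-fold and 3.91-fold higher in knockdown 10 cells, and the rule itself asked that the groups not overlap. DLX3, a homeobox gene, NRG3, a neuregulin, TMPRSS11E, a serine protease, PLD1, phospholipase D1, and TSPAN5, a tetraspanin, followed (1.81, 1.66, 1.60, 1.55 and 1.55), with CLIC2 at 1.44.

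**Figure D4:**
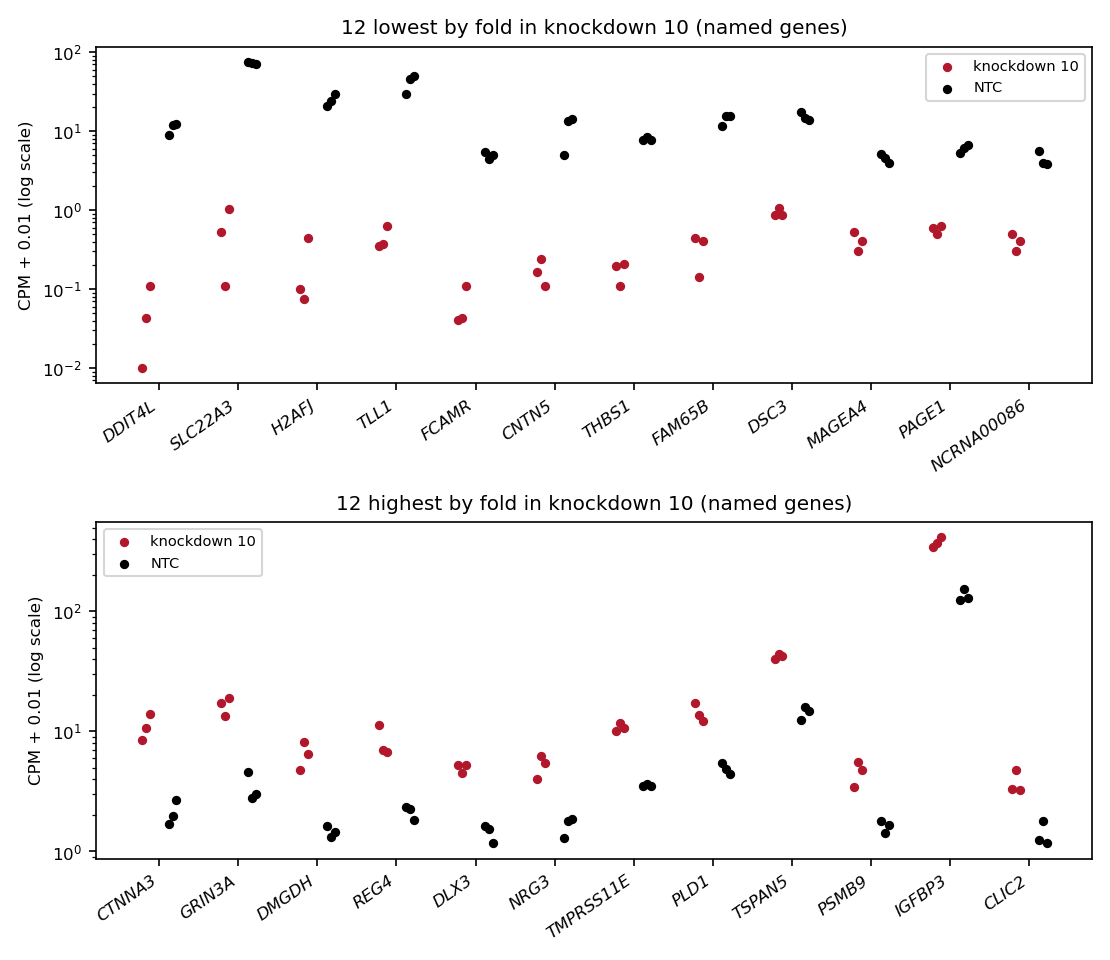
CPM plus 0.01 on a log axis in each knockdown 10 library (left of each pair) and NTC library (right) for the 12 lowest (upper panel) and 12 highest (lower panel) called genes whose average log2 CPM reached 1. The gaps in the upper panel are wider, with log2 fold changes down to -7.88 (DDIT4L) against up to 2.37 (CTNNA3) in the lower panel.

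By transcript abundance other genes moved furthest. After FTH1, called genes with large gains in mean TPM were the myosin light chain gene MYL6 (3620 TPM in knockdown 10 cells and 2930 TPM in NTC cells), UGT2B15 and CDKN1A, then NUPR1, a stress-induced chromatin protein (742 TPM in knockdown 10 cells and 487 TPM in NTC cells), the matrix gene SPON2 (955 TPM in knockdown 10 cells and 741 TPM in NTC cells), and PSAP, a lysosomal precursor (852 TPM in knockdown 10 cells and 654 TPM in NTC cells). The largest losses were GAPDH (3180 TPM in knockdown 10 cells and 3950 TPM in NTC cells) and RPL4 (3220 TPM in knockdown 10 cells and 3910 TPM in NTC cells). RPL13A, like RPL4 a protein of the large ribosomal subunit, PTMA, prothymosin, and LDHB followed. TPM are shares of all transcripts, so a gain in 1 gene lowers the others.

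The difference between knockdown 10 and NTC cells was then set beside the same difference under DHT, in a test of the interaction in the same fit of 18 libraries. The cell cycle lists were lower under DHT too, with medians of -1.16 for licensing, -0.84 for the fork, -1.47 for mitotic entry and -1.52 for the spindle. The interaction called 29 genes of 14558 (0.199%), 23 with a higher value in vehicle (0.158%) and 6 with a lower one (0.0412%), and a fit blocked on replicate number called 427, 237 higher and 190 lower, all 29 among them. The block pairs libraries of the same number. Whether same-numbered libraries deviated together was checked in the vehicle groups only. Without 1 library the count was 5 to 16 for each NTC library, 9 to 24 for each knockdown 10 vehicle library, 19 without knockdown 10 DHT library 3, and 70 and 90 without knockdown 10 DHT libraries 1 and 2. CCNE2, cyclin E2, did not pass in vehicle (adjusted p = 0.0691, or 0.0302 with the block and 0.00651 with only the vehicle libraries) and had a log2 fold change of 0.25 in vehicle and -0.55 under DHT (difference 0.80, SE 0.142, adjusted p = 0.0265). DUT, which removes dUTP from the nucleotide pool, had 0.03 in vehicle and -0.62 under DHT (difference 0.65, SE 0.0948, adjusted p = 0.00825), and RRM1, the large subunit of ribonucleotide reductase, -0.29 and -0.94 (difference 0.65, SE 0.101, adjusted p = 0.0141). CDT1, which did not pass in vehicle, stood at -0.90 under DHT (difference 0.73, SE 0.132, adjusted p = 0.0293). These 4 differences are positive because the knockdown change was further below 0 under DHT. KLK4 was the opposite case, with -0.64 in vehicle and 0.61 under DHT (difference -1.25, SE 0.148, adjusted p = 0.00209). IL1RN, higher in both, had 1.17 in vehicle and 1.78 under DHT (difference -0.62, SE 0.107, adjusted p = 0.0235). Of these 6 genes KLK4 and DUT kept their calls without any 1 library, and the adjusted p of the others rose above 0.05 without some libraries, to 0.0996 at most. With limma on TPM KLK4 alone kept its call among the 6 (DUT 0.059, RRM1 0.0931, CDT1 0.0925, CCNE2 0.113 and IL1RN 0.142), and with only the libraries compared CCNE2 and CDT1 lost theirs (adjusted p = 0.111 for each).

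With DHT and enzalutamide together, no gene's difference was called apart from that in vehicle by edgeR (0 of 14558, or 0%, with 192 genes, or 1.32%, at an unadjusted p under 0.05), by edgeR with the replicate block, by DESeq2 or by limma, and 1 was called by edgeR without knockdown 10 vehicle library 2. Evenly spread p-values would put a share of 0.05 under that limit, so the test was cautious here and may miss differences. A p that misses the threshold does not show that the changes were equal. SIRT1 had -1.55 in vehicle and -1.56 with DHT and enzalutamide, KLK3 -2.08 and -1.61, and CDKN1A 1.30 and 1.17. The list medians lay side by side as well, with -1.46 in vehicle and -1.46 with both drugs for the spindle and -0.72 and -0.69 for licensing.

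Set against shSIRT1 cells in FBS medium, the cell cycle difference of knockdown 10 cells in vehicle was larger. The FBS libraries held 11.9 to 14.2 M counts, fewer than the vehicle libraries. Serum, hairpin or clone, the strength of the SIRT1 knockdown, and sequencing depth cannot be told apart in this comparison. Differences against FBS come from a fit of the 12 libraries compared, so they can depart slightly from the 2 changes printed beside them, of which the vehicle one is from the fit of 18. The interaction called 2112 of 15345 genes (13.8%), 1147 higher in vehicle (7.47%) and 965 lower (6.29%). Other scalings moved that split to 996 and 1064 (relative log expression), 859 and 1182 (upper quartile) and 902 and 1126 (total counts), and with the closely similar FBS libraries 1 and 2 of each group summed the count was 1118, 552 higher and 566 lower, an alternative chosen after seeing the data. Of 32 spindle genes 28 had a lower value in vehicle (25 with the FBS libraries summed), of 16 mitotic entry genes 12 (12), of 42 kinetochore genes 26 (23) and of 29 licensing genes 19 (15). The median log2 fold change of the spindle list was -1.46 in vehicle and 0.11 in FBS, and that of the licensing list -0.72 and 0.09. MKI67 had -1.83 in vehicle and 0.20 in FBS (difference -1.99, SE 0.238, adjusted p = 0.000156), and CDKN1A had 1.30 and -0.49 (difference 1.83, SE 0.186, adjusted p = 6.28e-05). Both adjusted p come from the fit that counts FBS libraries 1 and 2 of each group as separate samples.

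Other genes were low in both settings. SLC22A3 had -7.05 in vehicle and -5.46 in FBS, KLK3 -2.08 and -1.94, and DDIT4L -7.88 and -6.41. THBS1 was lower in both, by more in vehicle (-5.59 against -2.94), though in deposited TPM with a pseudocount of 0.5 the difference was 0.02. FAM65B, ST8SIA4, a polysialyltransferase gene, and ITPRIPL2 were lower in vehicle by -5.45, -2.95 and -2.96 and had -1.15, 0.37 and -0.06 in FBS. For ITPRIPL2 the difference was -0.46 with limma on TPM and lost its call (adjusted p = 0.102), against -2.85 in the edgeR fit. REG4 and SPRY4, a feedback inhibitor of growth factor signalling, were higher in vehicle and lower in FBS (1.97 and -1.36, 0.55 and -2.45). The calls of REG4 and SPRY4 in that comparison were lost with the FBS libraries summed (adjusted p = 0.0526 and 0.0508) and without single FBS libraries (up to 0.118), and the vehicle call of SPRY4 was lost without knockdown library 1 or NTC library 3 (0.0895 and 0.0636).

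**Figure D5:**
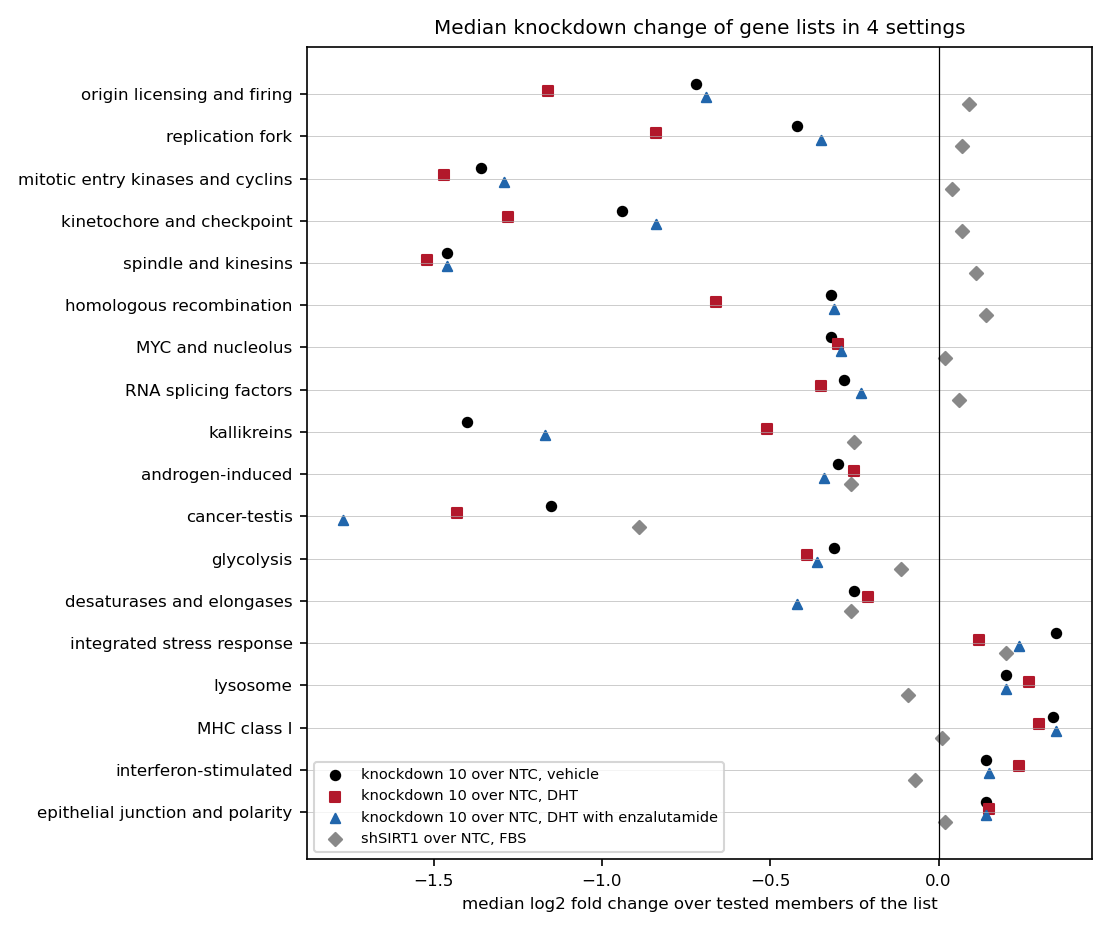
Median log2 fold change (horizontal axis) over the tested members of 18 gene lists, for knockdown 10 over NTC cells in vehicle, DHT and DHT with enzalutamide, and for shSIRT1 over NTC cells in FBS. The cell cycle lists lie below 0 in the 3 stripped-serum settings and near 0 in FBS.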

How the data were processed

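The libraries were poly(A)-selected, stranded RNA libraries, per the labels' protocols. Expected counts per gene were deposited by the authors, who estimated them with RSEM 1.2.31 after CASAVA 1.8.2 on hg19, per the submitters' processing notes; the aligner is not given in the sources used here. The same deposited files hold TPM, which the authors computed per gene length and library, and FPKM, which was deposited too and not used in any test. TPM gave levels and 1 alternative.

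Expected counts were rounded to whole numbers. Genes were kept by filterByExpr and tested with edgeR 4.0.16 (R 4.3.3; TMM factors, quasi-likelihood test, two-sided, Benjamini-Hochberg adjustment over all genes tested, calls at an adjusted p under 0.05). The fit held the 18 stripped-serum libraries with 1 coefficient per group, and differences from the DHT settings are interactions in that fit. The difference from FBS comes from a fit of the 12 libraries compared. CPM use TMM-scaled library sizes, and a standard error (SE) is the absolute log2 fold change over the square root of F. DESeq2 1.42.0 and limma 3.58.1 (pseudocount 0.5 on TPM, prior count 2 on CPM) were alternatives. The fit was tested on simulated data. Intervals and floors cover counting error only.

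Groups and replicate numbers came from the sample titles. Same-numbered knockdown 10 and NTC vehicle libraries deviated together from their group means (correlations 0.356, 0.231 and 0.123). The labels state no pairing, and the main fit has no term for replicate number. Pairing by number, taken from the data, enters only in the replicate block. Values given without mention of the block leave that pairing out. The block called 6558 genes in vehicle against 5038, and 427 against 29 in the difference from DHT. FBS libraries 1 and 2 differed by a chi-square per gene of 1.59 in shSIRT1 cells and 1.53 in NTC cells, against 8.47 to 8.95 for their other pairs.

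The text names SIRT1, index genes of each list, the 12 highest and 12 lowest called genes by fold without overlap at an average log2 CPM of at least 1, the 8 largest gains and losses in TPM, up to 4 called members per list, and 6 genes each way per interaction; the others are marked as chosen after their values were seen. Some genes that the rule names are not reported here. Members and lists were chosen with earlier results of these data known. Promoters are 250 bases before to 50 after the start, from RefSeq on GRCh38.p14, matched by symbol for 11216 of the 14558 tested genes; the deposited files hold no coordinates.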

Additional observations from a re-analysis of the deposited data

Results flagged for a closer look

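The values here are log2 fold changes of the knockdown over its NTC, and each result was picked out because the change in vehicle differed from that in another setting in a test of the interaction (edgeR, adjusted p under 0.05), as the 6 highest and 6 lowest at an average log2 CPM of at least 1. Against DHT, 6 genes had a higher value in vehicle. CCNE2 differed by 0.80, CDT1 by 0.73, DUT by 0.65 and RRM1 by 0.65, as given above. DSN1, a kinetochore gene, had -0.30 in vehicle and -0.96 under DHT, a difference of 0.66. PAX9, a paired-box factor, had 0.25 in vehicle and -0.41 under DHT, also 0.66 apart.

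The other 6 had a lower value in vehicle. KLK4 differed by -1.25 and IL1RN by -0.62. LGALS8, a galectin gene, had -0.42 in vehicle and 0.28 under DHT, a difference of -0.70. C1QTNF6 had 0.39 in vehicle and 1.03 under DHT, a difference of -0.65. POLR2J3, one of several near-identical RNA polymerase subunit genes that may share reads, had 0.26 in vehicle and 0.71 under DHT, a difference of -0.45. PHF23 had -0.24 in vehicle and 0.09 under DHT, a difference of -0.34. The calls of KLK4 and DUT held without any single library, and those of the other 10 were lost without some of them. With limma on TPM only KLK4 of the 12 kept its call.

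Against FBS, with both changes from the fit of 12 libraries, 6 genes had a higher value in vehicle. GPR89C, which has close copies that may share reads, had 6.73 in vehicle and -0.07 in FBS, a difference of 6.79, which was 2.3 with limma on CPM and 1.15 with limma on TPM; its call was lost in both (adjusted p = 0.137 and 0.228), with all 24 libraries, with FBS libraries summed and without some single libraries. FBXO22OS, an antisense gene, had 3.87 in vehicle and -0.22 in FBS, a difference of 4.09. LRRC7 had 0.71 in vehicle and -3.21 in FBS, a difference of 3.92. REG4 had 2.01 in vehicle and -1.37 in FBS, a difference of 3.37. SPRY4 had 0.59 in vehicle and -2.45 in FBS, a difference of 3.04, which was 2.14 with limma on CPM and 1.14 with limma on TPM (adjusted p = 0.0855 and 0.0611). GCG, the glucagon gene, had -0.02 in vehicle and -2.76 in FBS, a difference of 2.74.

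The 6 with a lower value in vehicle were led by TGIF2-C20ORF24, a readthrough gene that shares reads with its parents, with -1.22 in vehicle and 5.30 in FBS, a difference of -6.52, which was -2.53 with limma on CPM and -2.16 with limma on TPM; its call was lost in both (adjusted p = 0.274 and 0.251), with DESeq2 (0.0676) and without some single libraries. FAM65B had -5.40 in vehicle and -1.15 in FBS, a difference of -4.25. ST8SIA4 had -2.91 in vehicle and 0.37 in FBS, a difference of -3.28. ITPRIPL2 had -2.91 in vehicle and -0.06 in FBS, a difference of -2.85. LOC170425 had -2.86 in vehicle and -0.08 in FBS, a difference of -2.77, which was -0.29 with limma on TPM (adjusted p = 0.292). THBS1 had -5.54 in vehicle and -2.94 in FBS, a difference of -2.61. LRRC7, GCG, FAM65B and ST8SIA4 kept their calls in every alternative run.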

How the results depend on the processing

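The count of 5038 called genes in vehicle ranged from 4013 (limma on TPM) to 6558 (replicate block, 3086 higher and 3472 lower) over the other settings and from 4025 to 4622 without 1 library. Under other scalings the median log2 fold change of all genes was -0.009 to 0. Of the 192 called genes named in the text all kept their call and direction with the replicate block, which added calls for 6 of the named genes that had not passed, as given beside them, and changed no other call among them, and over the other settings, the block included, 1723 of 1727 values did, as did 1133 of 1152 without 1 library. Over all lists 261 of 2640 counts of members moved by over 1.5 times.

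The 29 genes called against DHT became 427 with the replicate block, 7 with only the libraries compared, 156 with DESeq2, 3 with limma on TPM, and 5 to 90 without 1 library; apart from the fewer libraries fitted in some settings, the cause was not tested. Against DHT with enzalutamide the count was 0 to 1 without 1 library. DESeq2 called 0, with 121 genes (0.831%) at an unadjusted p under 0.05. Against FBS the 2112 genes became 1118 with FBS libraries 1 and 2 of each group summed, which leaves fewer samples and was chosen after seeing the data, and 1452 to 2426 without 1 library.

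The direction of 4 values turned; the cause was not tested. FOXO3 in vehicle stood at 0 with limma on TPM and at -0.05 to 0.03 without 1 library, and VIM at -0.42 to 0.16. The difference of THBS1 from FBS was 0.02 with limma on TPM, and that of TGIF2-C20ORF24 ranged from -8.91 to 1.15 without 1 library.

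At 28 to 32.9 M counts a vehicle library, genes below the filter were not described, and with 3 libraries a group small differences may be missed.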
